A study of Saccharomyces cerevisiae with 12 samples.

Results

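The late ergosterol pathway of Saccharomyces cerevisiae was described through 10 genes, from squalene epoxidation to the final reductase step. They are ERG1, ERG7, ERG11, ERG24, ERG25, ERG6, ERG2, ERG3, ERG5 and ERG4, here in pathway order. The genes were taken by name, not by a measured value, though with earlier results of these data known. All 10 were found among 7126 gene identifiers of the deposited table and passed the filter on low counts. RNA was measured in strain MGD353-13D, grown in rich YPD medium to mid log phase, with 2 libraries in each of 6 groups. Sdc1_KO lacks SDC1, a subunit of the Set1 complex that methylates histone H3 at lysine 4 (H3K4). Dpy30_KO lacks the DPY30 motif of Sdc1, and Sdc1_mut carries a point mutation in Sdc1 that the labels do not specify. Jhd2_KO lacks JHD2, the gene of the H3K4 demethylase. Sdc1_mut_Jhd2_KO carries the Sdc1 point mutation and the JHD2 deletion together, and WT is the unmutated strain. The labels give neither the number of clones behind a strain nor the origin of its 2 libraries, which may share a culture. Each p-value therefore speaks only of library-to-library spread, which may be technical. The series asks how the dimeric Set1 complex and Jhd2 together set H3K4 trimethylation; methylation itself was not analysed here.

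Ergosterol is the main sterol of fungal membranes, where it has the place that cholesterol has in animal cells. The late pathway turns squalene into ergosterol at the endoplasmic reticulum, and several of its steps consume oxygen. Its genes are controlled by the sterol sensors Upc2 and Ecm22 and by factors that respond to heme and oxygen. Erg1 is the squalene epoxidase and Erg7 the lanosterol synthase, which closes the sterol rings. Erg11, the target of azole antifungals, is a heme enzyme of the cytochrome P450 family that demethylates lanosterol. Erg24 is the sterol reductase that acts on the product of Erg11, and Erg25 is a methyl sterol oxidase. Erg6 adds a methyl group to the side chain, Erg2 is a sterol isomerase and Erg3 a sterol desaturase. Erg5, the other cytochrome P450 of the pathway, desaturates the side chain, and Erg4 is the reductase of the last step.

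The genes are scattered over the genome. In the R64 annotation (the sacCer3 assembly) ERG1 (YGR175C, 846933 to 848423), ERG25 (YGR060W, 610564 to 611493) and ERG4 (YGL012W, 472855 to 474276) lie on chromosome VII. ERG7 (YHR072W, 239098 to 241293) and ERG11 (YHR007C, 120091 to 121683) lie on chromosome VIII. ERG6 (YML008C, 251839 to 252990), ERG2 (YMR202W, 667537 to 668205) and ERG5 (YMR015C, 300869 to 302485) lie on chromosome XIII. ERG3 (YLR056W, 253861 to 254958) is on chromosome XII and ERG24 (YNL280C, 109095 to 110411) on chromosome XIV. Each has 1 coding exon, and none overlaps another annotated gene.

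Upstream sequence is shown for the 4 genes on which the strain differences turn, ERG11, ERG5, ERG2 and ERG4. At an adjusted p under 0.05, ERG5 RNA was lower in all 4 strains with an SDC1 mutation and ERG11 RNA in 3 of them. ERG2 and ERG4 RNA was higher in some of them. The lines give bases 300 to 101 before the start codon, 5′ to 3′ on the strand of the gene, from the RefSeq R64 genome. ERG11 is chrVIII:121784-121983 (minus strand), ERG5 chrXIII:302586-302785 (minus strand), ERG2 chrXIII:667237-667436 (plus strand) and ERG4 chrVII:472555-472754 (plus strand). Capitals mark letters of the sterol response element TCGTATA or of the anaerobic response element TCGTTNAG, both bound by Upc2, on either strand.
ERG11: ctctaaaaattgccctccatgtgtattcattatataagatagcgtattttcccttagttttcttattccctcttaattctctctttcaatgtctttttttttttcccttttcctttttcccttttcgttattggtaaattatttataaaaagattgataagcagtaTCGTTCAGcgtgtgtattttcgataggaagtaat
ERG5: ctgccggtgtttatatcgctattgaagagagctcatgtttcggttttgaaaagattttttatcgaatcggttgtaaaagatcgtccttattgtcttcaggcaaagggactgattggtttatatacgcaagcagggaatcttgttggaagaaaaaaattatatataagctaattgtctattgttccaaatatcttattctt
ERG2: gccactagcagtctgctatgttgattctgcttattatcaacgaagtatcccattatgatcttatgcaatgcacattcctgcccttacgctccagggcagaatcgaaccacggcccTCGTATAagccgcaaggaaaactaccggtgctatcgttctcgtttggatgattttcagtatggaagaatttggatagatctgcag
ERG4: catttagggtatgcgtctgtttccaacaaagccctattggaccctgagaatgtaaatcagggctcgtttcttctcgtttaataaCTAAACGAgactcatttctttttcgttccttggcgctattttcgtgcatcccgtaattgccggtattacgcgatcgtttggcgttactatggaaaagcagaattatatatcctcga

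Motif letters were searched on both strands of the 300 bases before the start codon. The anaerobic response element TCGTTNAG was present in ERG7, ERG11, ERG24 and ERG4, and in 2.73% of the 6007 such windows of nuclear coding genes. This element was added to the search after the sequences had been read, so its presence in members is no test of enrichment. It ends 127 bases before the start codon of ERG11, and in ERG4 it lies on the opposite strand, 216 to 209 bases before the start codon. The letters TCGTATA were present in ERG2, 185 to 179 bases before its start codon, and in ERG3, and in 4.61% of all windows. The core ATTGTT of sites of the oxygen-dependent repressor Rox1 was present in ERG1, ERG3 and ERG5, and in 34.1% of all windows. These letter matches do not overlap one another. The ERG2 window also overlaps RNA170, an annotated noncoding RNA, and the ERG6 window overlaps the coding gene MIN4. A letter match is a description and no evidence of binding.

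The libraries held 8652878 to 26041718 fragments, and the members had 481 to 22935 fragments per library. SDC1 had 0 fragments in both Sdc1_KO libraries, and JHD2 had 0 in the 4 libraries of Jhd2_KO and Sdc1_mut_Jhd2_KO, as labelled. Mitochondrially encoded RNAs were nearly missing from 3 groups. They had 8 to 17 fragments per library in Dpy30_KO, 2 to 9 in Sdc1_mut and 9 to 16 in Sdc1_mut_Jhd2_KO. Sdc1_KO libraries had 48224 to 53235, Jhd2_KO libraries 29213 to 37871 and WT libraries 35130 to 62789, all without scaling for depth. In comparisons of those 3 groups with WT, the mutation and the missing mitochondrial RNA cannot be told apart. The 2 Sdc1_KO libraries also differed most from each other, with a median absolute log2 difference of 0.23 over the members, against 0.05 to 0.12 in the other groups.

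Within a library, levels differed widely between the genes. On the authors' FPKM scale, which accounts for transcript length, ERG6 was the highest member in every library, at 640 to 1036 FPKM. ERG25 followed at 381 to 468 FPKM, and its range overlapped those of ERG11 (262 to 541 FPKM), ERG3 (271 to 402 FPKM) and ERG2 (231 to 410 FPKM). ERG4 (138 to 212 FPKM), ERG24 (133 to 176 FPKM) and ERG1 (126 to 164 FPKM) formed a lower tier with overlapping ranges. ERG7 (27.4 to 48.1 FPKM) and ERG5 (21.9 to 84.6 FPKM) were lowest. The 12 values of ERG5 spread more, relative to its level, than those of ERG7. All further levels are CPM (scaled counts of fragments) with edgeR's TMM-scaled library sizes, and compare the same gene between libraries. They are shares of a bulk culture's RNA, so fewer expressing cells and less RNA per cell cannot be told apart.

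**Figure D1:**
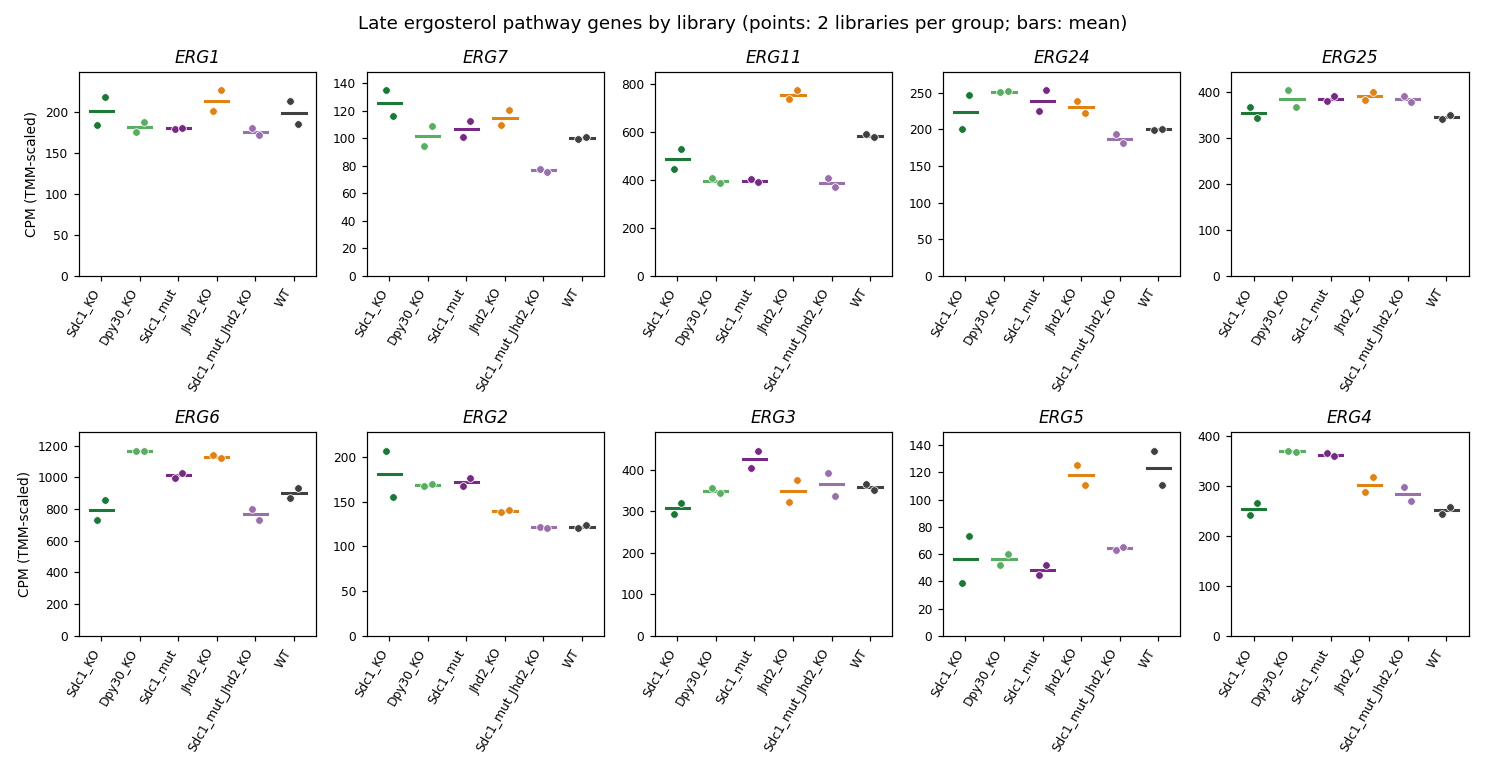
CPM of each member (vertical axis, linear from 0) in the 12 libraries, by strain; points are the 2 libraries of a group and bars their mean. ERG5 stood at 39.0 to 73.2 CPM in the 8 libraries with an SDC1 mutation and at 111 to 136 CPM in the 4 others, while ERG25 changed little.

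Against WT, the pathway did not move as a block. In Sdc1_KO 2 members were called higher and 1 lower, where called means an adjusted p under 0.05 in edgeR's quasi-likelihood test over all genes; of all 6361 genes tested, 50.4% were called (28.0% higher, 22.4% lower). In Dpy30_KO 4 were called higher and 2 lower (52.4% of all genes called, 27.2% higher and 25.1% lower), and in Sdc1_mut 2 higher and 2 lower (52.5% of all genes, 27.9% higher and 24.7% lower). In Sdc1_mut_Jhd2_KO none was called higher and 3 were called lower (59.2% of all genes, 29.1% higher and 30.1% lower). In Jhd2_KO none of the 10 was called (1.63% of all genes, 0.755% higher and 0.880% lower). ERG11, ERG6 and ERG4 had an unadjusted p under 0.05 there, all higher, but the share of all genes under that limit was not counted. DESeq2 called 1 member in Jhd2_KO and limma-trend 0. In Sdc1_KO the count was 5 without Sdc1_KO replicate 2, 2 without either WT library and 1, ERG5, in a fit of the 2 groups alone, and in Dpy30_KO it was 4 without WT replicate 1 or either Dpy30_KO library. The shares of members called in the SDC1 mutants were thus near or below those of all genes. The median log2 fold change of the members was 0.02 in Sdc1_KO, 0.09 in Dpy30_KO, 0.16 in Sdc1_mut, 0.20 in Jhd2_KO and -0.14 in Sdc1_mut_Jhd2_KO, beside medians of all genes from -0.00 to 0.04. Summed over the members, RNA was lowest in a Sdc1_mut_Jhd2_KO library (2699 CPM) and highest in a Jhd2_KO library (3811 CPM), with 3180 and 3189 CPM in WT. The 5 comparisons share the WT libraries, so their values stand side by side and are no independent support for each other.

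**Figure D2:**
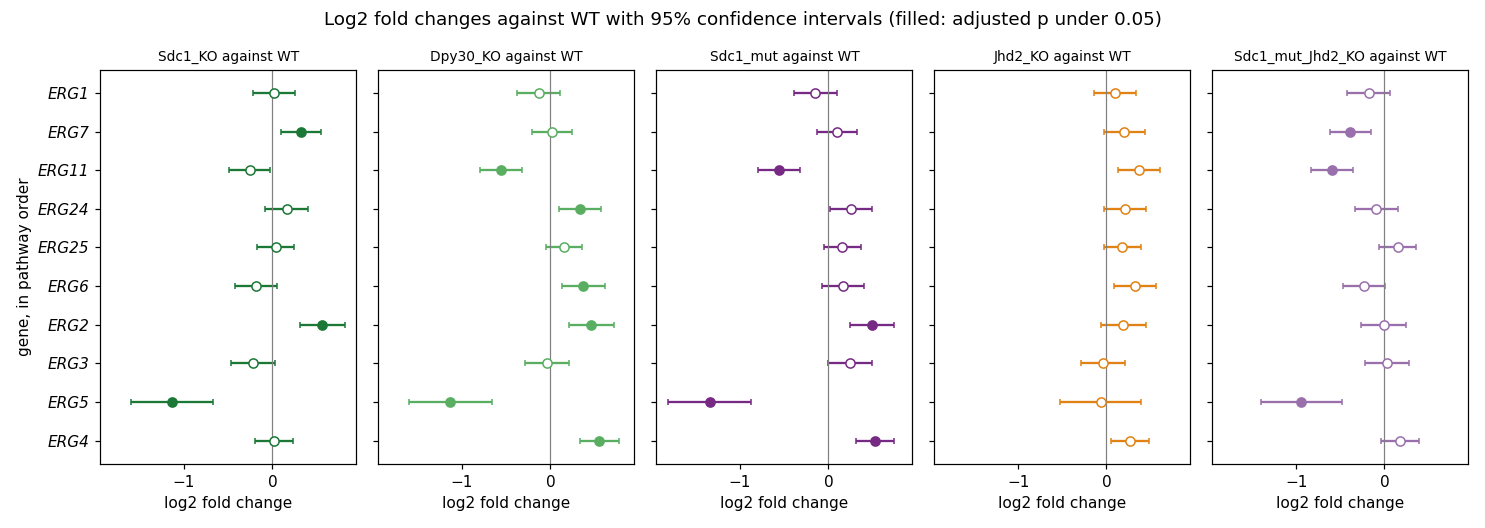
Log2 fold change of each member (rows, in pathway order) in the 5 mutant strains against WT, from edgeR's quasi-likelihood fit; bars are 95% confidence intervals and filled points have an adjusted p under 0.05. ERG5 lies between -0.94 and -1.35 in the 4 strains with an SDC1 mutation and at -0.07 in Jhd2_KO.

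The cytochrome P450 gene ERG5 was lower in all 4 strains with an SDC1 mutation. Its level was 39.0 and 73.2 CPM in Sdc1_KO, 52.4 and 60.3 CPM in Dpy30_KO, 44.7 and 52.2 CPM in Sdc1_mut, 63.1 and 65.5 CPM in Sdc1_mut_Jhd2_KO, 125 and 111 CPM in Jhd2_KO, and 136 and 111 CPM in WT. Every library with an SDC1 mutation lay below every library without one, a split that was not counted over all genes. Jhd2_KO overlapped WT for ERG5. The log2 fold change was -1.13 ± 0.21 in Sdc1_KO (SE, n = 2 libraries per group; edgeR adjusted p = 0.00091), a fall of 54.4% for which replicate 1 was the lower library. Without that replicate the value was -0.78, and without replicate 2 it was -1.66, both still called. ERG5 fell by 1.13 ± 0.22 on the log2 scale in Dpy30_KO (edgeR adjusted p = 0.00086), by 1.35 ± 0.22 in Sdc1_mut (edgeR adjusted p = 0.00027) and by 0.94 ± 0.21 in Sdc1_mut_Jhd2_KO (edgeR adjusted p = 0.0022). The fall was called both in Sdc1_KO, whose libraries hold mitochondrial RNA, and in the 3 groups that nearly lack it; the part of that loss in the falls of those 3 groups was not tested. In Jhd2_KO the value was -0.07 ± 0.21, with a 95% confidence interval from -0.52 to 0.39.

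ERG11, the other P450 gene and by far the more abundant of the pair, was lower in 3 of these strains. It stood at 447 and 530 CPM in Sdc1_KO, 406 and 385 CPM in Dpy30_KO, 401 and 390 CPM in Sdc1_mut, 406 and 369 CPM in Sdc1_mut_Jhd2_KO, 736 and 773 CPM in Jhd2_KO, and 590 and 577 CPM in WT. No mutant group overlapped WT, and Jhd2_KO was the group above it. How common this is over all genes was not counted. ERG11 fell by 0.56 ± 0.11 on the log2 scale in both Dpy30_KO and Sdc1_mut (edgeR adjusted p = 0.00096 in each) and by 0.59 ± 0.11 in Sdc1_mut_Jhd2_KO (edgeR adjusted p = 0.00049). In Sdc1_mut_Jhd2_KO that is a level which fell by 33.6%. In Sdc1_KO the log2 fold change was -0.26 ± 0.11 and missed the threshold (edgeR adjusted p = 0.064), while DESeq2 (adjusted p = 0.022) and RLE scaling (adjusted p = 0.039) called it; without Sdc1_KO replicate 1 it was -0.17. In Jhd2_KO the log2 fold change was 0.37 ± 0.11 (edgeR adjusted p = 0.10), with a 95% confidence interval from 0.14 to 0.61. DESeq2 called this rise (adjusted p = 0.036), as did a fit of the Jhd2_KO and WT libraries alone (adjusted p = 0.016).

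ERG2 and ERG4, which act after ERG6, were higher in SDC1 mutants that keep JHD2, ERG2 in all 3 and ERG4 in 2 of them. ERG2 stood at 207 and 155 CPM in Sdc1_KO, 168 and 170 CPM in Dpy30_KO, 168 and 176 CPM in Sdc1_mut, 122 and 121 CPM in Sdc1_mut_Jhd2_KO, 138 and 141 CPM in Jhd2_KO, and 120 and 124 CPM in WT. The 3 single SDC1 mutants lay above all other libraries, a split that was not counted over all genes, and Sdc1_mut_Jhd2_KO overlapped WT. ERG2 rose by 0.57 ± 0.12 on the log2 scale in Sdc1_KO (edgeR adjusted p = 0.0016), 0.47 ± 0.12 in Dpy30_KO (edgeR adjusted p = 0.005) and 0.49 ± 0.12 in Sdc1_mut (edgeR adjusted p = 0.0034). Without Sdc1_KO replicate 1 its value in Sdc1_KO was 0.32, still called, but a fit of the Sdc1_KO and WT libraries alone ended that call (0.54, adjusted p = 0.0504).

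ERG4 stood at 242 and 266 CPM in Sdc1_KO, 370 and 367 CPM in Dpy30_KO, 364 and 358 CPM in Sdc1_mut, 297 and 270 CPM in Sdc1_mut_Jhd2_KO, 287 and 318 CPM in Jhd2_KO, and 243 and 258 CPM in WT. Dpy30_KO and Sdc1_mut were the high groups, and Sdc1_KO overlapped WT. ERG4 rose by 0.56 ± 0.10 on the log2 scale in Dpy30_KO (edgeR adjusted p = 0.00057) and by 0.53 ± 0.10 in Sdc1_mut (edgeR adjusted p = 0.0008). Its value in Sdc1_KO was 0.02 ± 0.10 (95% confidence interval -0.20 to 0.23). The 2 groups in which ERG4 rose lack mitochondrial RNA, and Sdc1_KO does not. Sdc1_mut_Jhd2_KO lacks it too, and ERG4 was not called there against WT (297 and 270 CPM). Jhd2_KO, which has mitochondrial RNA, stood at 287 and 318 CPM and was not called either. The part of the mitochondrial RNA loss in the rise of ERG4 was not tested.

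ERG6, ERG24 and ERG7 were called in fewer strains. ERG6, the most abundant member, had 734 and 855 CPM in Sdc1_KO, 1168 and 1169 CPM in Dpy30_KO, 996 and 1030 CPM in Sdc1_mut, 803 and 730 CPM in Sdc1_mut_Jhd2_KO, 1139 and 1123 CPM in Jhd2_KO, and 872 and 930 CPM in WT. It rose by 0.37 ± 0.11 on the log2 scale in Dpy30_KO (edgeR adjusted p = 0.012), a call lost without WT replicate 1 (adjusted p = 0.086) or either Dpy30_KO library (0.054 and 0.057). Its values were nearly as high in Jhd2_KO (0.33 ± 0.11, edgeR adjusted p = 0.15), where they were called in the fit of the 2 groups alone (adjusted p = 0.03).

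ERG24 had 251 and 253 CPM in Dpy30_KO and 199 and 201 CPM in WT. It rose by 0.33 ± 0.11 in Dpy30_KO (edgeR adjusted p = 0.023), and leaving out any 1 of the 4 libraries ended that call (adjusted p 0.077 to 0.093). In the other strains ERG24 had 201 and 247 CPM (Sdc1_KO), 225 and 254 CPM (Sdc1_mut), 193 and 182 CPM (Sdc1_mut_Jhd2_KO) and 240 and 223 CPM (Jhd2_KO), and was not called.

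ERG7 was called in opposite directions in 2 strains. It had 135 and 117 CPM in Sdc1_KO, 94.1 and 109 CPM in Dpy30_KO, 101 and 113 CPM in Sdc1_mut, 77.5 and 75.7 CPM in Sdc1_mut_Jhd2_KO, 110 and 120 CPM in Jhd2_KO, and 99.2 and 101 CPM in WT. The Sdc1_mut_Jhd2_KO libraries were the lowest of all 12, and ERG7 fell there by 0.39 ± 0.11 on the log2 scale (edgeR adjusted p = 0.0073). In Sdc1_KO it rose by 0.33 ± 0.10 (edgeR adjusted p = 0.02), a call lost without Sdc1_KO replicate 1 (0.19, adjusted p = 0.16), WT replicate 1 (adjusted p = 0.092) or WT replicate 2 (adjusted p = 0.065), and in a fit of the 2 groups alone (adjusted p = 0.126).

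ERG1, ERG25 and ERG3 were called in no strain against WT. ERG1, the entry to the oxygen-dependent steps, ranged over 172 to 226 CPM in mutant libraries, around the 213 and 186 CPM of WT. ERG25 ranged over 342 to 404 CPM in mutant libraries, beside 342 and 350 CPM in WT, and its log2 fold changes lay between 0.04 and 0.18. ERG3 was lowest in Sdc1_KO (295 and 321 CPM) and highest in Sdc1_mut (405 and 446 CPM), with 366 and 352 CPM in WT. The groups Sdc1_KO and Sdc1_mut thus did not overlap, and neither overlapped WT, a split that was not counted over all genes. Their log2 fold changes against WT were -0.22 ± 0.11 and 0.25 ± 0.11 and missed the threshold (edgeR adjusted p = 0.12 and 0.087). A fit of the 2 groups alone called ERG3 (0.23, adjusted p = 0.0377) and ERG24 (0.24, adjusted p = 0.0293) higher in Sdc1_mut than in WT.

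Loss of JHD2 went with lower RNA of 5 members in the point mutant. Between Sdc1_mut_Jhd2_KO and Sdc1_mut, 5 members were called lower and none higher, where 32.5% of all genes were called, 13.2% higher and 19.4% lower. ERG2 fell by 0.50 ± 0.12 on the log2 scale (edgeR adjusted p = 0.0062) and ERG7 by 0.48 ± 0.11 (edgeR adjusted p = 0.0047). ERG6 fell by 0.40 ± 0.11 (edgeR adjusted p = 0.014), ERG4 by 0.35 ± 0.10 (edgeR adjusted p = 0.017) and ERG24 by 0.35 ± 0.11 (edgeR adjusted p = 0.03). The 2 groups did not overlap for these 5, which adds little because the 5 were picked by their calls. The share of all genes without overlap was not counted. Both groups lacked mitochondrial RNA (2 to 16 fragments per library). ERG11 showed -0.03 ± 0.11 (95% confidence interval -0.27 to 0.20), and ERG5 0.41 ± 0.22 (edgeR adjusted p = 0.18), so the 2 P450 genes were not among those that fell. A fit of the 2 groups alone called ERG5 higher (0.46, adjusted p = 0.00152) beside the same 5 lower. The count rests on single libraries: it was 0 without Sdc1_mut replicate 2, 3 without Sdc1_mut replicate 1, 2 without Sdc1_mut_Jhd2_KO replicate 2 and 4 without Sdc1_mut_Jhd2_KO replicate 1, with every one of these values still below 0.

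The same 5 genes had values above 0 when JHD2 was deleted in WT, none of them called. This was not particular to them, as ERG11 (0.37), ERG25 (0.18) and ERG1 (0.10) were also above 0. Only ERG3 (-0.04) and ERG5 (-0.07) were below 0. The difference between the 2 effects of JHD2 loss was tested as an interaction, the log2 effect in the point mutant minus that in WT, and 5 members passed, all below 0, where 20.4% of all genes passed and 12% below 0 and 8.39% above. The interaction was -0.73 ± 0.16 for ERG6 (edgeR adjusted p = 0.0075), -0.70 ± 0.17 for ERG2 (edgeR adjusted p = 0.012) and -0.68 ± 0.15 for ERG7 (edgeR adjusted p = 0.0087). For ERG4 it was -0.62 ± 0.14 (edgeR adjusted p = 0.01) and for ERG24 -0.56 ± 0.16 (edgeR adjusted p = 0.026). ERG11 had -0.40 ± 0.15 and missed the threshold (edgeR adjusted p = 0.082). The calls were not all below 0 in a fit of the 4 groups alone, which called 6 members below 0, ERG11 now among them (-0.40, adjusted p = 0.0138), and 1 above, ERG5 (0.47, adjusted p = 0.0251). The median over the members was -0.48, beside -0.04 over all genes. The count was 3 without WT replicate 1 or Sdc1_mut replicate 2, 2 without Jhd2_KO replicate 2, and 4 or 5 without any other library. Mitochondrial RNA was missing from the point mutant with and without JHD2 and present in Jhd2_KO and WT. Its part in the interaction was not tested. The 2 deletions also removed unequal levels of JHD2 RNA, which averaged 5.31 CPM in WT and 13.6 CPM in Sdc1_mut. The part of that difference in the interaction was not tested either.

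**Figure D3:**
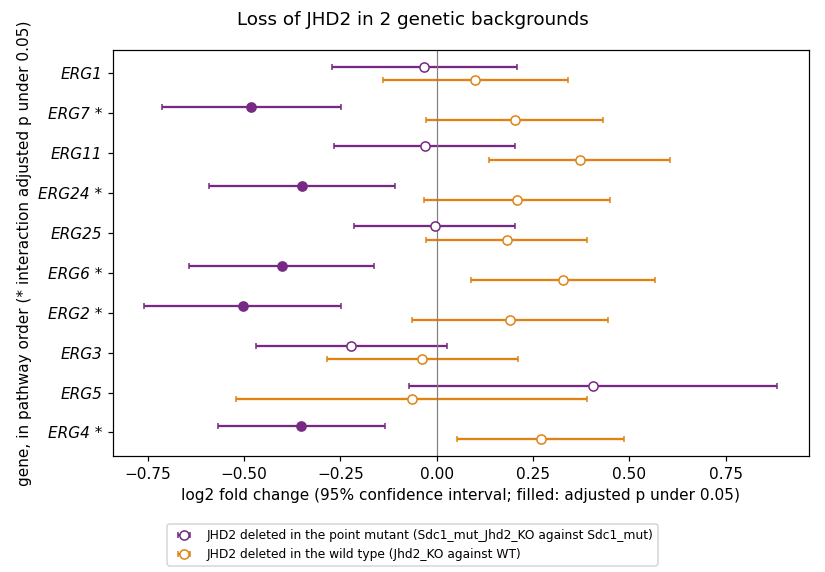
Log2 fold change on loss of JHD2 (horizontal axis, with 95% confidence intervals) for each member, in the point mutant (purple, Sdc1_mut_Jhd2_KO against Sdc1_mut) and in the wild type (orange, Jhd2_KO against WT); filled points have an adjusted p under 0.05 and asterisks mark a called interaction. The 5 starred genes lie at -0.35 to -0.50 in the point mutant and at 0.19 to 0.33 in the wild type.

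The 3 single SDC1 mutants differed from each other in a few late steps. Between Sdc1_KO and Dpy30_KO, 3 members were called (25.2% of all genes, 14.0% higher and 11.2% lower). ERG6 was lower in Sdc1_KO by 0.56 ± 0.11 on the log2 scale (log2 fold change -0.56, edgeR adjusted p = 0.0031) and ERG4 by 0.54 ± 0.10 (log2 fold change -0.54, edgeR adjusted p = 0.0019). ERG7 was 0.31 ± 0.11 higher in Sdc1_KO (edgeR adjusted p = 0.047), a call lost with RLE scaling (adjusted p = 0.059), DESeq2 (0.074) and limma-trend (0.0502), and without Sdc1_KO replicate 1 (0.19, adjusted p = 0.22). ERG11 was 0.30 ± 0.11 higher in Sdc1_KO and missed the threshold (edgeR adjusted p = 0.057), while DESeq2 called it (adjusted p = 0.040). Limma-trend also called 1 member higher, which was not ERG7. Without Sdc1_KO replicate 2 the members called numbered 6, and without Dpy30_KO replicate 1 they numbered 2. ERG5 had a log2 fold change of -0.00 ± 0.22, with a wide 95% confidence interval from -0.48 to 0.47. It was -0.53 without Sdc1_KO replicate 2 (edgeR adjusted p = 0.0095) and 0.37 without Sdc1_KO replicate 1 (edgeR adjusted p = 0.0495), so its direction depended on which Sdc1_KO library was kept.

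Between Sdc1_KO and Sdc1_mut, 3 members were called lower (21.4% of all genes called, 11.3% higher and 10.1% lower). They were ERG4 (-0.51 ± 0.10, edgeR adjusted p = 0.0033), ERG3 (-0.47 ± 0.11, edgeR adjusted p = 0.012) and ERG6 (-0.35 ± 0.11, edgeR adjusted p = 0.04). DESeq2 called 1 member higher beside 3 lower. The ERG6 call was lost without Sdc1_KO replicate 1 or either Sdc1_mut library, and without Sdc1_mut replicate 2 ERG4 alone was called. Members called numbered 5 without Sdc1_KO replicate 2 and 2 without Sdc1_mut replicate 1. None of the 10 was called between Dpy30_KO and Sdc1_mut by edgeR, DESeq2 or limma-trend, where edgeR called 0.0157% of all genes. ERG3 (-0.28 ± 0.11) had an unadjusted p under 0.05, but the share of all genes under that limit was not counted. The 95% confidence intervals of the 10 reached at most 0.69 from 0, for ERG5. Both comparisons with Sdc1_KO set libraries with mitochondrial RNA against libraries without it, and the genotype and that difference cannot be told apart. A fit of only the 2 groups compared, in which the spread of the Sdc1_KO libraries counts in full, called 0 members in either.

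Genes of the steps before squalene epoxidation were called in both directions as well. Of 10 genes of the mevalonate and squalene steps, 4 were called higher and 2 lower in Sdc1_KO (50.4% of all genes called), 5 and 2 in both Dpy30_KO (52.4%) and Sdc1_mut (52.5%), none in Jhd2_KO (1.63%), and 2 and 4 in Sdc1_mut_Jhd2_KO (59.2%). With so many genes called in all, these counts are a description of the list and no result particular to it. Their median log2 fold changes were 0.14, 0.14, 0.20, 0.23 and 0.03 in that order of strains. ERG20, the farnesyl pyrophosphate synthase, rose in all 4 strains with an SDC1 mutation, by 0.58 ± 0.10, 0.85 ± 0.11, 0.69 ± 0.11 and 0.41 ± 0.10 (edgeR adjusted p = 0.00065, 3.4e-05, 0.00018 and 0.0044). MVD1, the mevalonate pyrophosphate decarboxylase, rose by 0.38 to 0.86 in the same strains, with the call in Sdc1_KO lost without WT replicate 2 or in a fit of the 2 groups alone. ERG9, the squalene synthase that feeds ERG1, fell in all 4, most in Sdc1_mut_Jhd2_KO (-0.58 ± 0.09, edgeR adjusted p = 0.00021); in the 3 single mutants it was -0.26 to -0.35, and leaving out 1 library ended each of those calls, as a fit of the 2 groups alone did in Sdc1_KO. ERG13, the HMG-CoA synthase, had the largest rise of this list (0.90 ± 0.16 in Dpy30_KO, edgeR adjusted p = 0.00055), and ERG10, the acetoacetyl-CoA thiolase, the largest fall (-0.65 ± 0.13 in Sdc1_mut_Jhd2_KO, edgeR adjusted p = 0.00076).

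Among 6 further late-pathway enzymes and electron donors, 1 was called higher and 2 lower in Sdc1_KO (50.4% of all genes called), 2 and 2 in Dpy30_KO (52.4%), 1 and 2 in Sdc1_mut (52.5%), none in Jhd2_KO (1.63%), and 1 and 5 in Sdc1_mut_Jhd2_KO (59.2%). CYB5, the cytochrome b5 gene that supplies electrons to sterol and lipid enzymes, had 23.4 and 22.2 CPM in Sdc1_KO, 15.1 and 15.4 CPM in Dpy30_KO, 12.8 and 17.6 CPM in Sdc1_mut, 13.4 and 11.8 CPM in Sdc1_mut_Jhd2_KO, 40.1 and 33.9 CPM in Jhd2_KO, and 36.9 and 29.5 CPM in WT. The strains with an SDC1 mutation lay below those without, as they did for ERG5. How common such a split is over all genes was not counted. CYB5 fell by 0.55 ± 0.16 in Sdc1_KO (edgeR adjusted p = 0.011, lost without WT replicate 1), by 1.13 ± 0.16 in Dpy30_KO (edgeR adjusted p = 0.00012), by 1.12 ± 0.16 in Sdc1_mut (edgeR adjusted p = 0.00013) and by 1.40 ± 0.17 in Sdc1_mut_Jhd2_KO (edgeR adjusted p = 1.7e-05), on the log2 scale. ERG27, the keto reductase that works with Erg25, had the largest rise (0.47 ± 0.10 in Sdc1_mut, edgeR adjusted p = 0.0013). DAP1, a heme-binding protein that supports Erg11, was chosen for mention after its values were seen; it fell by 0.60 to 0.72 in Dpy30_KO, Sdc1_mut and Sdc1_mut_Jhd2_KO and showed -0.11 ± 0.15 in Sdc1_KO. NCP1, the P450 reductase gene, was likewise added; it was higher in Dpy30_KO (0.46 ± 0.12, edgeR adjusted p = 0.0066) and in Sdc1_mut_Jhd2_KO (0.31 ± 0.12, edgeR adjusted p = 0.044). The NCP1 call in Dpy30_KO was lost without WT replicate 2 (0.41, adjusted p = 0.0528). That in Sdc1_mut_Jhd2_KO was lost without WT replicate 1 (0.36, adjusted p = 0.0782), WT replicate 2 (0.26, adjusted p = 0.192) or Sdc1_mut_Jhd2_KO replicate 1 (0.17, adjusted p = 0.346).

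Heme, the cofactor of Erg11, Erg5 and cytochrome b5, has its own synthesis genes. Of 8 such genes, 2 were called higher and 4 lower in Sdc1_KO (28.0% of all genes higher, 22.4% lower), 6 lower in Dpy30_KO (25.1% of all genes lower), 6 lower in Sdc1_mut (24.7%), none in Jhd2_KO, and 7 lower in Sdc1_mut_Jhd2_KO (30.1%); none was called higher in the last 4. HEM13, the oxygen-dependent coproporphyrinogen oxidase, had 504 and 829 CPM in Sdc1_KO, 53.7 and 51.4 CPM in Dpy30_KO, 56.0 and 55.3 CPM in Sdc1_mut, 43.2 and 47.5 CPM in Sdc1_mut_Jhd2_KO, 299 and 389 CPM in Jhd2_KO, and 380 and 431 CPM in WT. The 6 libraries without mitochondrial RNA, those of Dpy30_KO, Sdc1_mut and Sdc1_mut_Jhd2_KO, were far below all others. In these strains the mutation and the missing mitochondrial RNA cannot be told apart. The log2 fold change of HEM13 was -2.95 ± 0.21 in Dpy30_KO, -2.86 ± 0.21 in Sdc1_mut and -3.16 ± 0.21 in Sdc1_mut_Jhd2_KO (edgeR adjusted p = 4.3e-07, 5.4e-07 and 2e-07), and it rose by 0.72 ± 0.19 in Sdc1_KO (edgeR adjusted p = 0.007, lost without WT replicate 1 and in a fit of the 2 groups alone). HEM15, the ferrochelatase that inserts iron, fell in all 4 strains with an SDC1 mutation, by 0.79 ± 0.08 in Sdc1_KO, 1.13 ± 0.09 in Dpy30_KO, 1.09 ± 0.09 in Sdc1_mut and 1.52 ± 0.09 in Sdc1_mut_Jhd2_KO. HEM1, HEM4 and HEM12 also fell in these 4 strains, by 0.36 to 1.07. The smallest of these falls, HEM1 in Sdc1_KO, was -0.13 without WT replicate 1 and was also lost without Sdc1_KO replicate 2, with limma-trend and in a fit of the 2 groups alone, and the HEM4 call in Sdc1_mut was lost without WT replicate 2 or Sdc1_mut replicate 1.

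Of 8 regulators, 4 were called lower in Sdc1_KO (22.4% of all genes lower) and in Dpy30_KO (25.1%) and 5 in Sdc1_mut (24.7%), none in Jhd2_KO, and 2 lower and 2 higher in Sdc1_mut_Jhd2_KO (30.1% and 29.1%). ECM22, a sterol-responsive activator of ERG genes, fell in all 4 strains with an SDC1 mutation, by 0.46 ± 0.12 in Sdc1_KO (edgeR adjusted p = 0.0075, lost without WT replicate 1 and in a fit of the 2 groups alone) to 0.85 ± 0.12 in Sdc1_mut_Jhd2_KO (edgeR adjusted p = 8.1e-05). NSG2, a regulator of HMG-CoA reductase stability, fell by 0.42 to 0.56. ROX1, the repressor of hypoxic genes, had the largest fall (-1.39 ± 0.24 in Sdc1_KO, edgeR adjusted p = 0.0005), and HAP1, the heme-responsive activator, the largest rise (0.41 ± 0.10 in Sdc1_mut_Jhd2_KO, edgeR adjusted p = 0.0039). UPC2, the other sterol sensor, is named here outside the rule for named genes given below. It was not called in any strain (log2 fold changes -0.59 to 0.12, SE 0.31 to 0.32). Its Sdc1_KO libraries lay far apart (54.5 and 156 CPM), and all groups of the fit share a gene's spread, so this pair counts in every SE. UPC2 had 147.5 and 148.6 CPM in WT, 110 and 91.4 CPM in Dpy30_KO, and 98.8 and 98.2 CPM in Sdc1_mut. Jhd2_KO had 112 and 119 CPM, and Sdc1_mut_Jhd2_KO had 180 and 143 CPM.

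**Figure D4:**
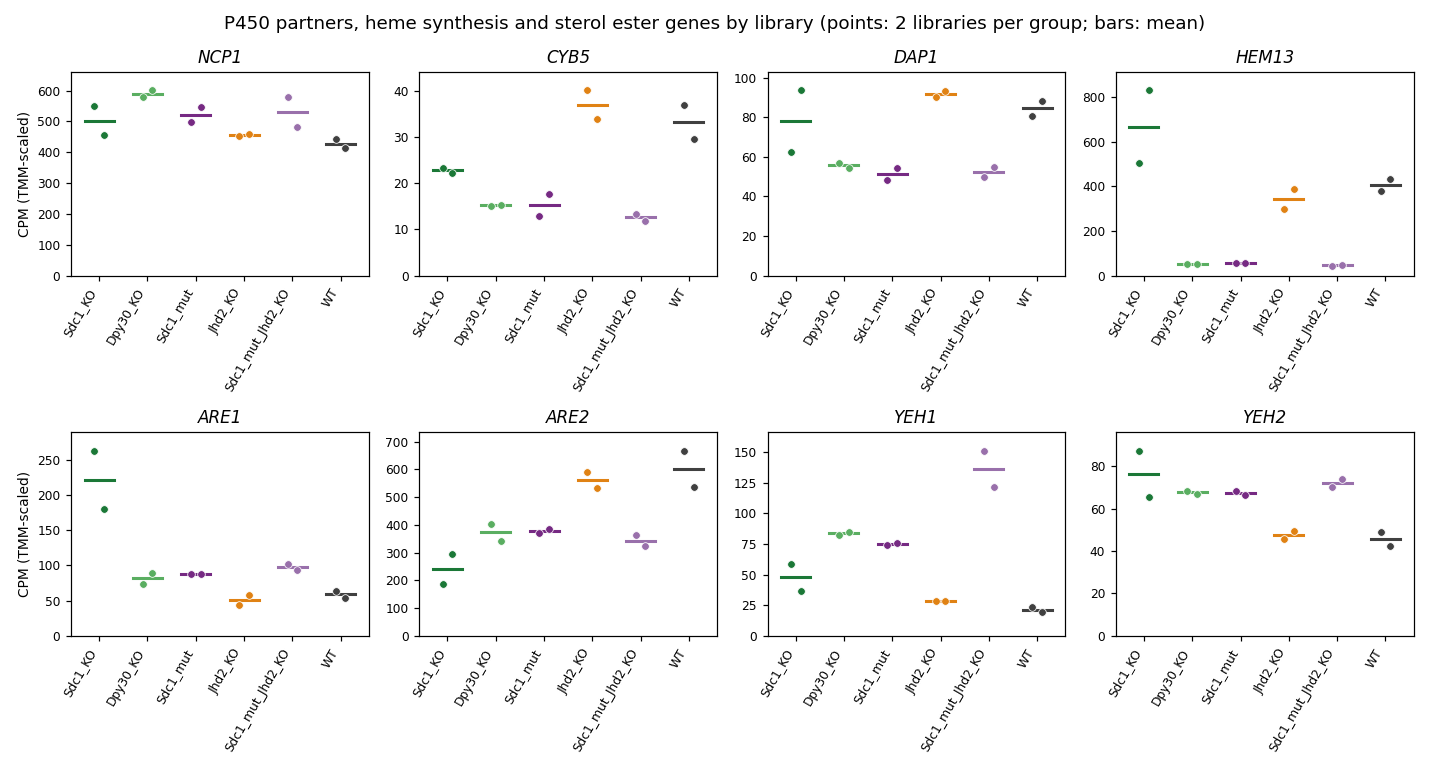
CPM (vertical axis, linear from 0) of 3 P450 partner genes, the heme synthesis gene HEM13 and 4 sterol ester genes in the 12 libraries, by strain; points are the 2 libraries of a group and bars their mean. HEM13 lies at 43.2 to 56.0 CPM in the 6 libraries of Dpy30_KO, Sdc1_mut and Sdc1_mut_Jhd2_KO, which lack mitochondrial RNA. It lies at 299 to 829 CPM in the other 6. ARE1 and ARE2 differ from WT in opposite directions in Sdc1_KO.

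Genes of sterol uptake, esterification and transport were called in both directions. Of 13, 6 were called higher and 2 lower in Sdc1_KO (50.4% of all genes called), 6 and 3 in Dpy30_KO (52.4%), 5 and 3 in Sdc1_mut (52.5%), none in Jhd2_KO (1.63%), and 6 and 4 in Sdc1_mut_Jhd2_KO (59.2%). The sterol acyltransferase genes parted: ARE1 had 263 and 181 CPM in Sdc1_KO and 64.3 and 54.0 CPM in WT, while ARE2 had 185 and 296 CPM in Sdc1_KO and 668 and 538 CPM in WT. ARE1 rose by 1.91 ± 0.18 on the log2 scale (edgeR adjusted p = 6.8e-06) and ARE2 fell by 1.32 ± 0.19 (edgeR adjusted p = 0.00013) in Sdc1_KO. ARE1 also rose in Dpy30_KO, Sdc1_mut and Sdc1_mut_Jhd2_KO, by 0.46 to 0.73, and ARE2 fell there by 0.67 to 0.81. Leaving out WT replicate 2 ended the ARE1 calls in Dpy30_KO and Sdc1_mut, as did leaving out Dpy30_KO replicate 2 or either Sdc1_mut library. Leaving out WT replicate 1 ended the ARE2 calls in these 2 strains, as did leaving out Dpy30_KO replicate 2 or Sdc1_mut replicate 1. YEH1, a steryl ester hydrolase, rose by 1.17 ± 0.18 in Sdc1_KO, 1.97 ± 0.18 in Dpy30_KO, 1.81 ± 0.18 in Sdc1_mut and 2.68 ± 0.19 in Sdc1_mut_Jhd2_KO (edgeR adjusted p = 0.00026, 4.3e-06, 6.9e-06 and 2.7e-07). YEH2, its homolog, rose by 0.56 to 0.74, AUS1, a sterol importer, by 0.72 to 1.04 and HES1, an oxysterol-binding protein homolog, by 1.47 to 1.92 in the same 4 strains. HES1 is a scarce RNA here, at 2.02 to 8.77 CPM.

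The members did not share a profile over the 12 libraries. Pearson's r between pairs of members in log2 CPM ran from -0.73 (ERG2 with ERG5) to 0.82 (ERG11 with ERG5), as a description over libraries that share groups, with no test. ERG11 and ERG1 had r = 0.81, although ERG1 was not called in any strain. The genes most like the mean profile of the members, among 5738 others with at least 5 CPM, were MRPS9 (r = 0.95, Spearman's rho 0.92), SPT16 (r = 0.94), GTT1 (r = 0.94), CAJ1 (r = 0.94) and SWI5 (r = 0.93). None of them belongs to the lists above. For ERG11 alone the closest was YNK1 (r = 0.98), and for ERG5 the closest named genes were ZWF1 and CIT1 (r = 0.97 each).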

How the data were processed

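Per the submitters' processing notes, bcl2fastq 2.17.1.14, TopHat and Cufflinks were used with the genome build sacCer3; strand setting, annotation and handling of reads with several map positions are not given in the sources used here. Per the labels' protocols, ribosomal RNA was removed and the libraries are directional. The authors deposited expected counts of fragments per gene and library (97.8% of values whole, within 1e-09) and FPKM values scaled by transcript length and library size. Of 7126 identifiers, 14 marked as too deep and listed at 0 were left out. FPKM served only to compare levels between genes, since it accounts for length.

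Expected counts were rounded and tested with edgeR 4.0.16 in R 4.3.3 (TMM scaling, default expression filter, 6361 of 7112 identifiers tested) in a single quasi-likelihood fit of 12 libraries in 6 groups. P-values were Benjamini-Hochberg adjusted over all genes tested. The standard error is the absolute log2 fold change over the square root of F, and the common biological coefficient of variation was 10.2%. Counting precision is high, with at least 481 fragments per member and library, so the 2 libraries per group limit the comparisons. Alternatives were RLE scaling, DESeq2 1.42.0, limma-trend 3.58.1, no filter, a replicate block, fits of only the groups compared, and leaving out each library. The replicate numbers did not pair the libraries. The fit was also run on simulated counts, with a small share of genes changed in Sdc1_KO alone and the same spread in all groups. These data have far more genes called and a wider spread in Sdc1_KO, so that run does not vouch for the fit here.

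The genes, lists and tests were chosen with earlier results of these data known. Named genes were all members and some genes of 5 lists. The lists were the mevalonate and squalene steps, other late enzymes and electron donors, regulators, genes of sterol uptake, esters and transport, and heme synthesis. Named from them were the genes called in at least 4 of 5 comparisons with WT in 1 direction and the largest called rise and fall. DAP1 and NCP1 are marked as chosen later, and UPC2 is named outside this rule. The results flagged for a closer look name every gene examined that passed the interaction test. The element TCGTTNAG was added to the motif search after the sequences had been read. Upstream sequences and coordinates come from the RefSeq R64 assembly, which is sacCer3.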

Additional observations from a re-analysis of the deposited data

Results flagged for a closer look

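The effect of losing JHD2 differed between the point mutant and the wild type for 21 of the genes examined. The test was edgeR's interaction test at an adjusted p under 0.05 over all genes. The genes examined were the 10 members and, in 5 lists, 10 mevalonate and squalene, 6 other late-pathway, 8 regulator, 13 sterol uptake and 8 heme genes. Of all 6361 genes tested, 1297 (20.4%) passed, with 763 values below 0 and 534 above. Whether the genes examined passed more often than all genes was not tested. The values are log2 differences, the effect in the point mutant (Sdc1_mut_Jhd2_KO against Sdc1_mut) minus that in the wild type (Jhd2_KO against WT), with 2 libraries per group. Among the late-pathway genes they were -0.73 for ERG6, -0.70 for ERG2 (unrounded -0.695), -0.68 for ERG7, -0.62 for ERG4 and -0.56 for ERG24. In the mevalonate and squalene steps they were -1.22 for ERG13, -0.90 for ERG10, -0.69 for ERG8, -0.64 for ERG20, -0.48 for MVD1 and -0.40 for ERG9. The C-4 demethylation partners of Erg25 had -0.94 for ERG27, -0.84 for ERG28 and -0.81 for ERG26. KES1, an oxysterol-binding protein homolog, had -0.56. In heme synthesis the values were -0.71 for HEM2, -0.61 for HEM14, -0.39 for HEM15 and 0.59 for HEM1. The regulators SUT1, a factor of hypoxic sterol uptake, and MOT3, a repressor of hypoxic genes, went the other way, with 1.89 and 0.78. All 21 genes share the same 8 libraries, and the libraries of the point mutant lack mitochondrial RNA with and without JHD2. JHD2 RNA averaged 5.31 CPM in WT and 13.6 CPM in Sdc1_mut, so the 2 deletions removed unequal levels. The part of that difference was not tested. Leaving out single libraries ended the calls of ERG24 in 7 of 8 cases, and those of ERG2, ERG4, ERG8, ERG9, ERG20, MVD1, KES1, HEM1, HEM14 and HEM15 in at least 1. With all libraries kept, RLE scaling ended the calls of MVD1 (adjusted p = 0.0591), HEM15 (0.0603) and ERG9 (0.071), and DESeq2 those of MVD1 (0.0508) and HEM15 (0.075). ERG9 was also lost with no filter on low counts (0.052), and HEM1 with limma-trend (0.0511) and the replicate block (0.0532).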

How the results depend on the processing

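The precision of the late-pathway results is limited by 2 libraries per group, not by depth. List genes had as few as 33 fragments in a library, where depth can limit precision too. All 32 called values of the late-pathway genes kept their direction in 340 recomputations, and 49 of these missed the threshold, 38 of them with 1 library left out. The replicate numbers did not pair the libraries (correlation of same-numbered deviations -0.13 to 0.16, 4 of 15 pairs of groups over 0.1), and the replicate block kept all 32 calls, with 164 genes called in Jhd2_KO against 104 without it. Among 183 called values of list genes it ended 3. No scaling moved the median of all genes by over 0.1 (log2).

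Fits of only the groups compared gave 1 member and 2036 genes called for Sdc1_KO against WT, where the calls of ERG2 and ERG7 were lost, 2 and 623 for Jhd2_KO against WT, 0 and 500 for Sdc1_KO against Dpy30_KO, 0 and 454 for Sdc1_KO against Sdc1_mut, and 17 genes for Dpy30_KO against Sdc1_mut. They called more members for Sdc1_mut against WT (4 higher and 2 lower, beside 2 and 2 in the fit of all groups), for Sdc1_mut_Jhd2_KO against Sdc1_mut (1 higher and 5 lower, beside 0 and 5) and for the interaction (1 above 0 and 6 below, beside 0 and 5, with 2130 genes). Member counts for Dpy30_KO and Sdc1_mut_Jhd2_KO against WT were as in the fit of all groups. DESeq2 called 1 member and 271 genes for Jhd2_KO and 3 genes for Dpy30_KO against Sdc1_mut, where limma-trend called 2 and edgeR 1. The cause of these differences was not tested.

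With 1 library left out, the lone library of a group was assumed to vary like the others. Members called then numbered 2 to 5 for Sdc1_KO, 4 to 5 for Dpy30_KO, 4 for Sdc1_mut, 0 for Jhd2_KO and 3 for Sdc1_mut_Jhd2_KO against WT. They numbered 0 to 4 for Sdc1_mut_Jhd2_KO against Sdc1_mut, 2 to 6 for Sdc1_KO against Dpy30_KO, 1 to 5 for Sdc1_KO against Sdc1_mut, 0 for Dpy30_KO against Sdc1_mut and 2 to 5 for the interaction. Counts over all genes ran from 2292 to 3572, 2522 to 2746, 2511 to 2729, 5 to 26 and 3134 to 3231 for the same 5 strains against WT, and from 1100 to 1450, 804 to 2236, 646 to 2142, 1 to 2 and 580 to 1068 for the other 5 comparisons. ERG5 in Sdc1_KO against Sdc1_mut, not called, stood at 0.21 with all libraries, at -0.32 without Sdc1_KO replicate 2 and at 0.58 without replicate 1. Of the 47 uncalled member values under 0.2 from 0, 21 changed sign under some alternative.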
